A study of Mus musculus with 9 samples.

Results

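Zfp is the mouse symbol stem for zinc finger protein. The genes described are those whose symbol is Zfp followed only by digits and whose signal, averaged over all 9 arrays of the series, was 7 or more on a log2 scale. Of the 330 such genes on the array, 216 met this level and 114 did not. Each gene was read from 1 probe set, the one with the highest mean where there were more, and the members lay on 18 chromosomes. Their mean log2 signal ran from 7.01 to 15.50, with a median of 9.85. The members were thus chosen by this level, which is given only as a description. No comparison between groups entered the rule, but earlier results of these data were known when it was set. The mean includes the hairpin arrays, so a strong fall can take a gene below the level. Set on the scram arrays alone, the level gave 232 genes.

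The arrays were made from E0771 cells, a mouse mammary tumour line, in a study of what loss of pyruvate carboxylase (PC, the enzyme that makes oxaloacetate from pyruvate) does to tumour cells. There were 3 arrays of cells carrying a scramble hairpin (scram), 3 with the Pcx hairpin shPC25 and 3 with the Pcx hairpin shPC28. All cells had been transduced with lentiviral hairpins, for which the paper's methods give puromycin selection. They were in DMEM containing 5.6 mM glucose, 4 mM glutamine and 10% FBS, and no further treatment is listed for the samples. The labels leave it unsaid whether the arrays of a group stand for separate cultures. The p-values therefore reflect no more than how far these samples spread, which may be a technical spread. Less RNA per cell cannot be told apart from fewer cells of a kind in the dish.

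Most Zfp genes encode proteins with a row of C2H2 fingers, small folds that each hold a zinc ion and read a few bases of DNA. Many carry in addition a KRAB domain, which binds the corepressor Trim28 and through it brings the histone methyltransferase Setdb1 and heterochromatin proteins to DNA, often to silence endogenous retroviruses. These KRAB genes arose by local duplication and sit in clusters of close relatives. Other genes with the same symbol stem have unrelated jobs, in RNA binding, ribosome assembly or translation. The symbol therefore joins genes by naming and finger type and does not define 1 pathway.

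Pcx was lowered by both hairpins. Its scram arrays read 9.18, 8.84 and 9.20, its shPC25 arrays 5.64, 5.43 and 5.53 and its shPC28 arrays 7.01, 6.85 and 6.57. The log2 change was -3.54 with shPC25 and -2.26 with shPC28 (limma adjusted p = 1.28e-05 and 4.13e-06), so the weaker knockdown was that of shPC28. Array medians lay between 4.88 and 5.04, and arrays of 1 group correlated at 0.995 to 0.998 over the probe sets, a description only. Of 9 epithelial markers 2 had a mean of 7 or more, Krt8 at 14.11 and Epcam at 7.13, while Krt18 was at 4.01 and Cdh1 at 5.12. Vim was at 17.25, and 4 of 5 measured mesenchymal markers were above the level. None of the 16 measured fibroblast, macrophage, lymphocyte and endothelial markers reached it.

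More Zfp genes fell than rose, most clearly with shPC28. With shPC28, 115 of the 216 fell and 34 rose by limma at a Benjamini-Hochberg adjusted p under 0.05, and the median log2 change was -0.49. After quantile normalization 91 fell and 53 rose, with a median of -0.17. The median of all probe sets was then 0.06, beside 0.10 as deposited. The shares that follow are from the deposited scaling. Among all 9405 probe sets with a mean of 7 or more, 36.7% fell, 34.1% rose and 70.8% were called in either direction, with a median change of -0.01. The members' share of lower calls was 53.2% and that of higher calls 15.7%. Calls with shPC28 were many in both, and it was the balance of directions in which the Zfp genes differed from the probe sets at this level.

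With shPC25, 45 members fell and 23 rose, with a median log2 change of -0.14. With arrays centred on their medians 37 fell and 34 rose (median -0.042), and after quantile normalization 35 fell and 31 rose (median -0.046), so the balance of directions with shPC25 depended on the scaling. Median centring moved all probe sets alike, their median going from 0.04 to 0.14, so the members' distance from it did not change. After quantile normalization the median of all probe sets was 0.03. Shares of the probe sets at this level are given for the deposited scaling only. As deposited, 20.8% of members were lower and 10.6% higher, beside 19.5% and 17.6% of all probe sets at this level (37.1% in either direction), whose median change was 0.01. The share that fell was thus near the background, and the share that rose was below it. Leaving out scram replicate 2 brought the count of lower genes to 27.

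Set directly against shPC25, shPC28 lowered 93 members and raised 16, with a median of -0.31, and 69 and 23 with a median of -0.13 after quantile normalization. The former were 43.1% and 7.41% of members, beside 28.3% and 20.4% of the probe sets at this level, 48.7% of which were called in either direction. Without shPC25 replicate 1 or without shPC25 replicate 2 the count of higher genes was 10. A change of 2-fold or more together with a call was reached by 72 lower and 9 higher members with shPC28, by 13 lower and 1 higher with shPC25, and between the hairpins by 46 lower members and no higher one. Among the probe sets at this level such calls made up 19.8% lower and 8.03% higher with shPC28, 5.02% and 1.11% with shPC25, and 11.1% and 1.77% between the hairpins.

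**Figure D1:**
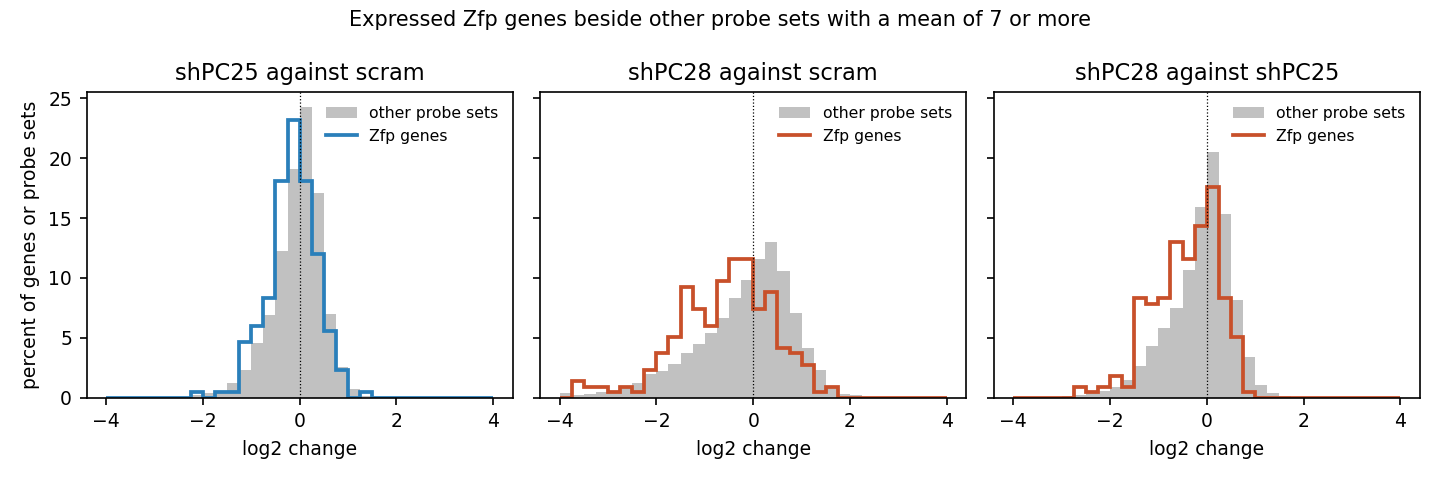
Share of genes or probe sets (percent, vertical axis) in bins of log2 change (horizontal axis) for the 3 comparisons; the line is the 216 Zfp genes and the filled area the other probe sets with a mean of 7 or more. The line lies to the left of the filled area, most clearly for shPC28 against scram, where the median of the Zfp genes was -0.49 (-0.17 after quantile normalization).

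The shift was seen on single arrays. The median deviation of the 216 genes from their scram means was -0.15, -0.19 and -0.09 on the shPC25 arrays. On the shPC28 arrays it was -0.46, -0.46 and -0.53, and on the scram arrays 0.00 to 0.01. The scram arrays lie near 0 by construction, since each deviation was taken from the scram mean. The ranges of the shPC25 and shPC28 arrays did not overlap each other. The same deviation over all probe sets with a mean of 7 or more stayed between -0.01 and 0.03 on every array.

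No member had a group mean under 7 in scram, 2 had one with shPC25 and 21 with shPC28, and 193 were at 7 or more in all 3 groups. The members were also split by their mean signal over all 9 arrays, which a gene's own fall lowers, so the split is a description only. With shPC28, 46 of the 72 members with the lowest mean signal were lower and 2 higher. The middle 72 had 42 lower and 10 higher, and the 72 with the highest signal had 27 lower and 22 higher. Other probe sets within the same signal ranges showed this slope as well, with 45.9%, 41.8% and 32.7% lower from the lowest to the highest range, while the members stood at 63.9%, 58.3% and 37.5%. For higher calls the members stood at 2.78%, 13.9% and 30.6% and the other probe sets at 21.5%, 30.8% and 39.4%. A split by the scram level alone, chosen after seeing the data, gave 55.6%, 59.7% and 44.4% of members lower beside 41.9%, 38.7% and 37.8% of other probe sets. By that split the lowest genes were not the ones that fell most often, while the members' share of lower calls was above that of other probe sets in each range.

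**Figure D2:**
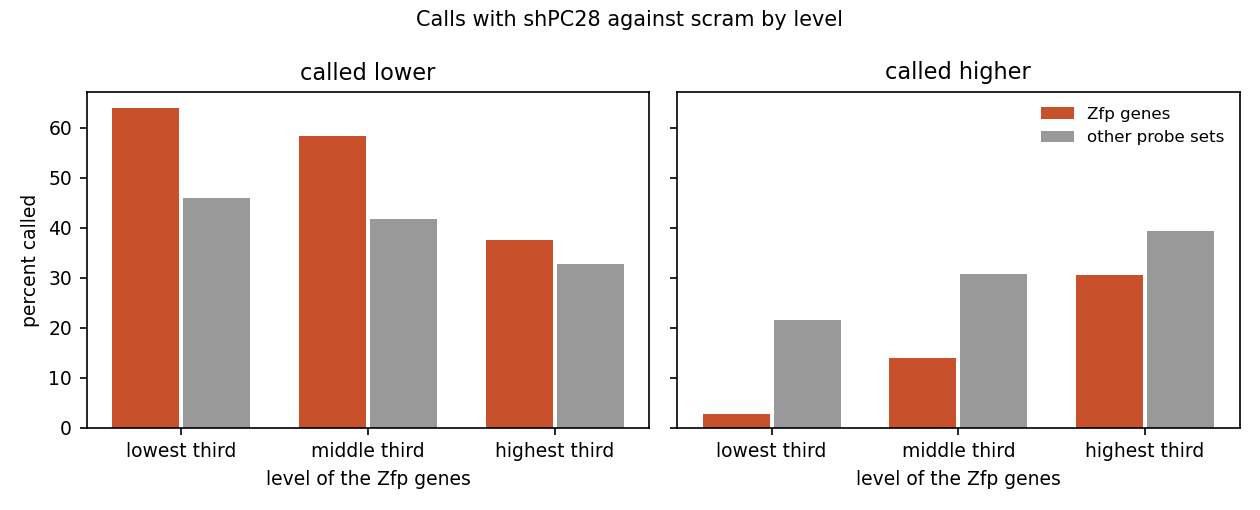
Percent of Zfp genes and of other probe sets in the same signal range (vertical axis) called lower (left) or higher (right) with shPC28, for the 72 Zfp genes with the lowest, middle and highest mean signal (horizontal axis). Zfp genes were lower more often than other probe sets in each range, from 63.9% against 45.9% in the lowest to 37.5% against 32.7% in the highest, and higher less often; the mean signal includes the shPC28 arrays themselves.

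The members with a role in RNA handling or ribosomes included 4 that rose with both hairpins. Of 11 such genes, shPC25 raised 4 and lowered none, while shPC28 raised 4 and lowered 2. The share that rose, 36.4% with either hairpin, stood beside 17.6% of the probe sets at this level with shPC25 and 34.1% with shPC28, so with shPC28 it was near the background. Zfp598 encodes an E3 ubiquitin ligase that marks collided ribosomes. Its log2 signal was 10.17, 9.81 and 10.22 on the scram arrays, 11.36, 11.68 and 11.37 with shPC25, and 11.61, 11.61 and 11.81 with shPC28. Every array of either hairpin was above every scram array. The increase was 2.65-fold with shPC25 (log2 change 1.40 ± 0.14 SE, adjusted p = 0.000384) and 3.05-fold with shPC28 (1.61 ± 0.14 SE, adjusted p = 2.53e-05), and the hairpins differed by 0.21 ± 0.14 SE (adjusted p = 0.34).

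Zfp593, related to the yeast pre-60S ribosome export factor Bud20, was at 9.86, 9.88 and 9.77 in scram, 10.97, 10.60 and 10.66 with shPC25 and 10.56, 11.15 and 11.11 with shPC28. It rose by 0.91 ± 0.17 SE and by 1.10 ± 0.17 SE, with no overlap between hairpin and scram arrays (adjusted p = 0.0064 and 0.00069). Zfp330, a nucleolar protein, rose by 0.64 and 0.84, and Zfp622, related to the yeast large-subunit factor Rei1, by 0.51 and 0.63, both with adjusted p of 0.0071 or less.

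The 2 that fell with shPC28 were Zfp106, an RNA-binding protein, and Zfp830. Zfp106 was at 12.57, 12.54 and 12.46 in scram, 12.26, 12.48 and 12.14 with shPC25, and 11.35, 11.36 and 11.37 with shPC28, so that the shPC28 arrays lay apart from the rest. Its log2 change was -1.16 ± 0.11 SE with shPC28 (adjusted p = 2.76e-05) and -0.23 ± 0.11 SE with shPC25 (adjusted p = 0.17). Zfp207, whose protein binds the spindle checkpoint protein Bub3, Zfp346, which binds double-stranded RNA, Zfp638, linked to silencing of unintegrated retroviral DNA, Zfp326, a subunit of a complex that links RNA polymerase II to splicing, and Zfp706 were not called against scram, their log2 changes with shPC28 ranging from -0.21 to 0.28.

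Members with a textbook role in transcription or chromatin mostly fell with shPC28. Of 23 such genes 18 fell (78.3%, beside 36.7% of the probe sets at this level) and 3 rose, and the median log2 change was -0.82. With shPC25 3 rose (13%) and 4 fell (17.4%), beside 17.6% and 19.5% of the probe sets at this level, so neither share was above the background. Without scram replicate 1 or without scram replicate 2 only 1 fell, and 2 without shPC25 replicate 3. The difference between the hairpins was called lower with shPC28 for 16 of the 23 (69.6%) and higher for none, beside 28.3% and 20.4% of the probe sets at this level. After quantile normalization the count lower with shPC28 was 14.

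Zfp703, whose human counterpart is an oncogene of luminal breast cancer, had the lowest change of this list. Its signal was 9.50, 9.27 and 9.71 in scram, 9.10, 8.74 and 8.72 with shPC25, and 6.03, 7.13 and 5.86 with shPC28. The 3 groups did not overlap. With shPC28 it was 8.90-fold lower than scram (-3.15 ± 0.30 SE, adjusted p = 3.9e-05) and 5.71-fold lower than shPC25 (-2.51 ± 0.30 SE, adjusted p = 0.00040), while the shPC25 change of -0.64 ± 0.30 SE did not pass the test (adjusted p = 0.18). Without shPC28 replicate 2, the highest of its group, the shPC25 change had an adjusted p of 0.023.

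Zfp827 came next on this list, from 8.73, 8.45 and 8.34 in scram to 7.53, 7.61 and 7.13 with shPC25 and 5.53, 5.91 and 6.64 with shPC28. The 3 groups were in separate ranges. It fell by 2.48 on the log2 scale with shPC28 (adjusted p = 7.33e-05) and by 1.08 with shPC25 (adjusted p = 0.020), the latter call being lost without scram replicate 1 or 2 or shPC25 replicate 3 (adjusted p = 0.055 to 0.072). Zfp24, Zfp318, Zfp292 and Zfp64 were lowered by shPC28, by 1.33, 1.13, 1.0 and 0.82, with changes of -0.09 to -0.19 for shPC25 that did not pass the test.

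For Zfp131, Zfp462, Zfp263 and Zfp768 the log2 changes with shPC25 were 0.27, 0.23, 0.38 and 0.42, none of which passed the test (adjusted p = 0.10, 0.22, 0.25 and 0.052), and all 4 were called lower with shPC28. Zfp768 was at 8.06, 8.06 and 8.15 in scram, 8.67, 8.28 and 8.57 with shPC25 and 7.26, 7.38 and 7.58 with shPC28. The shPC25 arrays were above scram and the shPC28 arrays below it, and the difference between the hairpins was -1.10 (adjusted p = 0.00035). The adjusted p of its shPC25 change was 0.027 without shPC25 replicate 2 and 0.047 without shPC28 replicate 3. The differences between the hairpins for Zfp131, Zfp462 and Zfp263 were -0.80, -0.81 and -1.08, each called. Against scram, Zfp263 was called lower with shPC28 (-0.70, adjusted p = 0.024) but not without scram replicate 2 or 3 (adjusted p = 0.083 and 0.055), and after quantile normalization the shPC28 changes of Zfp263, Zfp462 and Zfp768 were -0.13, -0.16 and -0.11, none of them called. Zfp639 was not called in any comparison.

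Zfp281 and Zfp148, relatives that bind GC-rich promoter elements, differed in how the hairpins affected them. Zfp281 was at 10.87, 10.88 and 10.63 in scram, 10.21, 9.72 and 10.30 with shPC25 and 9.11, 9.35 and 9.22 with shPC28, which puts the groups in separate ranges. It fell by 0.72 on the log2 scale with shPC25 (adjusted p = 0.014, and 0.050 or 0.054 without scram replicate 1 or 2) and by 1.57 with shPC28 (adjusted p = 5.91e-05). Zfp148 changed by 0.00 with shPC25 and by -0.96 with shPC28, a difference between hairpins of -0.96 ± 0.12 SE (adjusted p = 0.00054).

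Zfp687, Zfp592 and Zfp532, whose human counterparts form a complex with the chromatin reader ZMYND8, all fell with shPC28. The log2 changes were -1.56, -0.96 and -0.65, with adjusted p of 0.0055 or less, although Zfp532 changed by -0.08 after quantile normalization (adjusted p = 0.72). Zfp644, a partner of the G9a and GLP histone methyltransferases, fell with either hairpin, by 0.80 and 0.93. Zfp746, a repressor of the Pgc1a gene, changed by -0.22 with shPC25 (adjusted p = 0.29) and fell by 1.03 with shPC28. Zfp451, a SUMO ligase, changed by -0.22 (adjusted p = 0.23) and fell by 0.72.

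The 3 transcription genes that rose were Zfp277, Zfp410 and Zfp384. Zfp277, which in mouse fibroblasts takes part in Polycomb repression of the Ink4a/Arf locus, was at 12.64, 12.57 and 12.65 in scram, 13.59, 13.66 and 13.54 with shPC25 and 13.62, 13.70 and 13.74 with shPC28. The arrays of both hairpins lay above those of scram and overlapped each other, at 1.97-fold (0.98 ± 0.09 SE, adjusted p = 0.00022) and 2.09-fold (1.07 ± 0.09 SE, adjusted p = 1.51e-05). Zfp410, an activator of Chd4, rose by 0.77 (adjusted p = 0.0053) and by 1.04 (adjusted p = 0.00029). Zfp384 gave 0.31 and 0.38 (adjusted p = 0.044 and 0.0093), calls that centring on olfactory receptor probe sets took away (adjusted p = 0.12 and 0.18), and the shPC25 call was lost without any 1 array of scram or shPC25 or without shPC28 replicate 2 (adjusted p = 0.056 to 0.12). Zfp335, a component of a histone H3K4 methyltransferase complex, gave 0.03 with each hairpin and was not called.

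Among 9 members known or named for silencing, shPC28 lowered 5 and raised 2. The share lower, 55.6%, was about that of all members (53.2%), beside 36.7% of the probe sets at this level, and 1 of the 2 raised was Zfp932, whose probe sets disagree. Zfp445, which with Zfp57 keeps methylation at imprinted loci, was at 11.68, 11.49 and 11.48 in scram, 11.22, 11.03 and 11.59 with shPC25 and 8.68, 9.84 and 9.55 with shPC28. The shPC25 arrays overlapped scram, and the shPC28 arrays were all lower, by 4.57-fold (-2.19 ± 0.27 SE, adjusted p = 0.00019). Zfp57 itself stood at 11.38, 11.24 and 11.44, then 11.44, 11.53 and 11.35, then 11.19, 11.22 and 11.23, and was not called in any comparison.

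Zfp568, a KRAB protein that represses a placental promoter of Igf2, fell to a like extent with each hairpin. Its values were 10.75, 10.66 and 10.52 in scram, 9.33, 9.32 and 9.73 with shPC25 and 9.05, 9.63 and 9.20 with shPC28. Both hairpins lay below scram without overlap, by 1.18 ± 0.17 SE (adjusted p = 0.0019) and 1.35 ± 0.17 SE (adjusted p = 0.00022) on the log2 scale, and the hairpins themselves differed by -0.17 ± 0.17 SE (adjusted p = 0.54).

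Zfp809, which silences proviruses through Trim28, was at 13.95, 14.08 and 14.04 in scram, 13.66, 13.52 and 13.67 with shPC25 and 12.99, 13.05 and 13.01 with shPC28. The 3 groups were in separate ranges, with falls of 0.41 ± 0.09 SE (adjusted p = 0.013, and 0.052 without scram replicate 2) and 1.01 ± 0.09 SE (adjusted p = 2.47e-05). Zfp961 fell with shPC28 by 1.95. Zfp655 gave -0.60 (adjusted p = 0.018), a call lost without scram replicate 3 or shPC28 replicate 1 or 3 (adjusted p = 0.050 to 0.066) and after quantile normalization (-0.12, adjusted p = 0.63). Zfp110 and its relative Zfp369, which interact with the p75 neurotrophin receptor, gave 0.40 (adjusted p = 0.025) and -0.04 (adjusted p = 0.77), the former losing its call without scram replicate 1 or 3 or without shPC28 replicate 2 or 3 (adjusted p = 0.051 to 0.084).

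Zfp932, a repressor of endogenous retroviruses, gave opposite directions with its 2 probe sets. The brighter one, used here, was at 11.98, 12.20 and 11.98 in scram, 12.17, 11.99 and 12.12 with shPC25 and 12.64, 12.65 and 12.71 with shPC28, a rise of 0.61 ± 0.10 SE (adjusted p = 0.00099). The dimmer one went from 7.92, 8.06 and 7.98 in scram to 6.25, 6.60 and 6.10 with shPC28, a change of -1.67 ± 0.22 SE (adjusted p = 0.00026). No direction for the gene follows from them. The other member with a second probe set, Zfp781, fell with shPC28 in both, by 0.65 and 0.50.

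**Figure D3:**
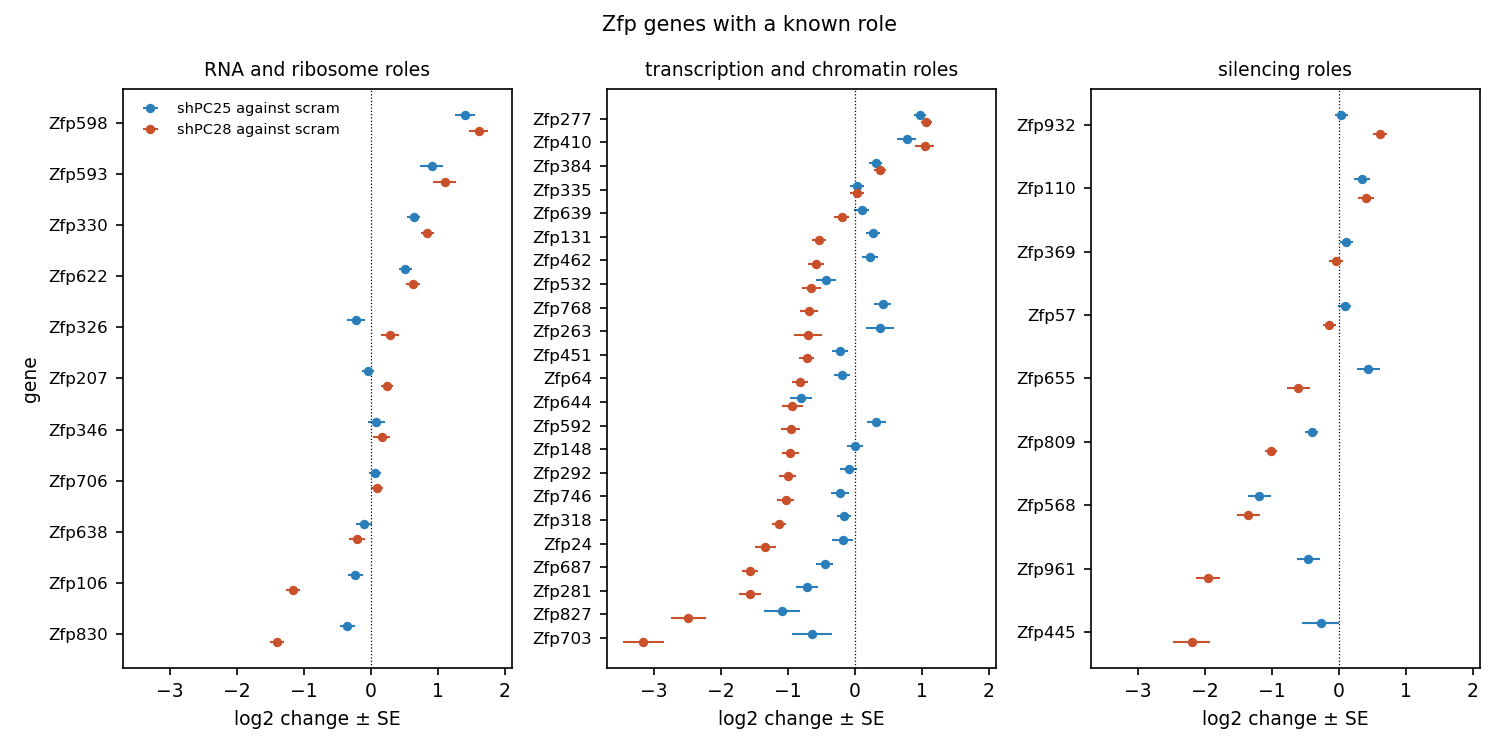
Log2 change against scram (horizontal axis, points with standard error of the limma fit) for the Zfp genes with a known role in RNA and ribosomes, in transcription and chromatin, and in silencing; blue is shPC25 and red shPC28. Zfp598, Zfp593, Zfp330 and Zfp622 lie to the right of 0 with both hairpins, and 18 of the 23 transcription and chromatin genes were called lower with shPC28.

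Of the 8 lowest changes with shPC28, 7 were in genes for which no role is given here, the other being Zfp703. Zfp764 was at 10.61, 10.59 and 10.78 in scram, 8.28, 8.50 and 8.65 with shPC25 and 7.92, 6.57 and 6.62 with shPC28. The groups were in separate ranges, with shPC28 replicate 1 nearest to the shPC25 arrays. The decrease was 4.54-fold with shPC25 (-2.18 ± 0.32 SE, adjusted p = 0.0019) and 12.3-fold with shPC28 (-3.62 ± 0.32 SE, adjusted p = 2.28e-05). Zfp334 was at 11.40, 11.44 and 11.42 in scram, 10.11, 9.97 and 10.08 with shPC25 and 8.18, 8.0 and 7.95 with shPC28. Its changes were -1.37 ± 0.10 SE and -3.38 ± 0.10 SE (adjusted p = 9.36e-05 and 1.99e-07), with -2.01 ± 0.10 SE between the hairpins (adjusted p = 1.15e-05).

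Zfp367 was at 12.12, 12.24 and 12.06 in scram, 10.94, 10.99 and 11.01 with shPC25 and 10.45, 10.32 and 10.28 with shPC28. Its groups did not overlap, and it fell by 1.16 (adjusted p = 0.00015) and 1.79 (adjusted p = 1.5e-06) on the log2 scale. Zfp760, Zfp646 and Zfp46 were lowered far more by shPC28 than by shPC25. The log2 changes were -3.51 and -0.97 for Zfp760, -3.46 and -1.03 for Zfp646, and -2.98 and -0.84 for Zfp46, and the differences between the hairpins were -2.54, -2.43 and -2.14, each with an adjusted p of 0.00021 or less. Zfp46 lost its shPC25 call without scram replicate 1 or 2 or shPC25 replicate 2 (adjusted p = 0.052 to 0.059), and Zfp646 lost it without scram replicate 1 or 3 or shPC25 replicate 1 or 2 (adjusted p = 0.051 to 0.082). Zfp72, at 9.62, 9.92 and 9.73 in scram and 7.25, 7.0 and 5.66 with shPC28, fell by 3.12, and its shPC25 change of -1.14 was at the threshold (adjusted p = 0.049).

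Apart from the genes with roles, the highest changes belonged to Zfp984, Zfp994, Zfp511 and Zfp938. Zfp938 was at 11.38, 11.18 and 11.49 in scram, 12.10, 12.02 and 11.75 with shPC25 and 12.48, 12.64 and 12.55 with shPC28, rising from group to group without overlap (0.61 and 1.21, adjusted p = 0.010 and 6.51e-05). Zfp511 was at 9.31, 9.23 and 9.03 in scram, 9.91, 9.56 and 9.19 with shPC25 and 10.26, 10.52 and 10.52 with shPC28. Its shPC25 arrays overlapped scram and its shPC28 arrays were above both, and it had the highest difference between the hairpins of any member, 0.88 ± 0.18 SE (adjusted p = 0.0065). Zfp788 was called between the hairpins alone, at 0.71 ± 0.13 SE (adjusted p = 0.0033), as its changes against scram of -0.39 with shPC25 and 0.32 with shPC28 did not pass the test (adjusted p = 0.063 and 0.071).

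**Figure D4:**
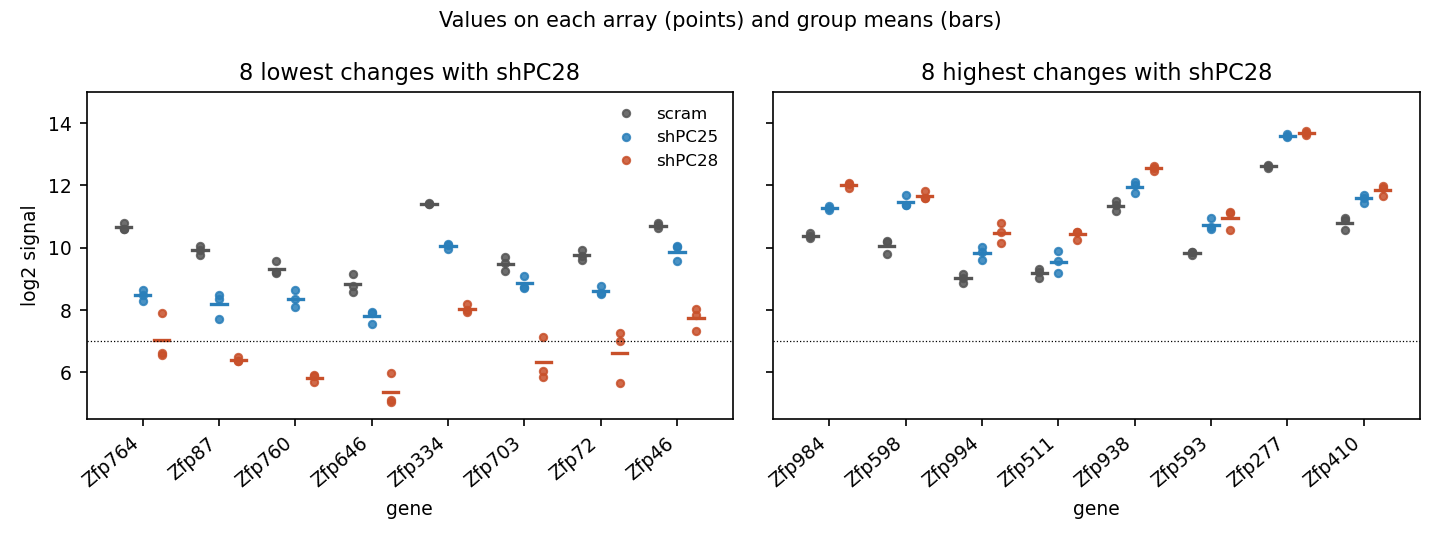
Log2 signal (vertical axis) of the 8 Zfp genes with the lowest (left) and the 8 with the highest (right) change with shPC28, points being single arrays, bars group means and the dotted line the level of 7 used to choose members. On the left the groups descend from scram through shPC25 to shPC28, Zfp764 from a mean of 10.66 through 8.48 to 7.04, and on the right they ascend, Zfp984 from 10.39 through 11.28 to 12.01.

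Some neighbouring genes moved together and others did not. Of the 216 members, 86 stood in 10 runs of 5 or more whose start sites were each within 1000000 bases of the next. A pair of runs lay on chromosome 4. In the run from Zfp980 to Zfp981, all 5 members (Zfp980, Zfp987, Zfp600, Zfp992 and Zfp981) rose with shPC28, with a median of 0.81. In the nearby run from Zfp985 to Zfp933, 4 of 5 rose and 1, Zfp933, fell. With shPC25, 7 of the 9 rising genes were called higher as well. Of all probe sets at this level 34.1% rose with shPC28 and 17.6% with shPC25, and of all members 15.7% and 10.6%. With any 1 array left out, 8 or 9 of the 9 were called higher with shPC28, and 6 when arrays were centred on olfactory receptor probe sets.

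Zfp984 rose most of these, from 10.38, 10.32 and 10.48 in scram to 11.21, 11.28 and 11.34 with shPC25 and 12.04, 11.92 and 12.07 with shPC28. The 3 groups did not overlap (0.88 ± 0.09 SE, adjusted p = 0.00045, and 1.62 ± 0.09 SE, adjusted p = 2.26e-06). Zfp979 went from 13.67, 13.94 and 13.78 to 14.36, 14.24 and 14.52 and to 14.88, 14.81 and 14.70, and Zfp980 from 12.27 on each scram array to 12.69, 12.78 and 13.04 and to 13.24, 13.25 and 13.22. Their rises were 0.58 and 1.0, and 0.57 and 0.97, all called. Zfp933 was at 9.54, 9.96 and 9.94 in scram, 8.80, 8.19 and 9.17 with shPC25 and 8.53, 8.60 and 8.14 with shPC28. It was lower with each hairpin without overlap, by 1.09 ± 0.25 SE (adjusted p = 0.014, and 0.055 or 0.054 without scram replicate 2 or 3) and by 1.39 ± 0.25 SE (adjusted p = 0.0016). These neighbours are close copies of each other, so their probe sets may share signal, which was not tested.

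The promoters are shown because those of the neighbours that rose resemble each other and that of Zfp933 does not. RefSeq windows (GRCm38.p6, 250 bases before to 50 after the start) were matched to 179 of the 216 members. Among the 8 rising chromosome 4 genes with a window, pairs aligned at a median identity of 73.3% (57.9% to 94.4%), whereas Zfp933 aligned to them at 44.5% to 49.1%. Pairs of members on different chromosomes had a median of 45.9%. The 150 bases before the start are printed with the stretch ATTGGGCGNGTC, a CCAAT box on the reverse strand running into an SP1 motif, in capitals. It begins 86 bases before the start in Zfp984 and 73 in both Zfp979 and Zfp980. Zfp994 of chromosome 17, which also rose, holds it 138 bases before the start. Its window aligned to those of the rising chromosome 4 genes at 41.9% to 48.1%, no closer than that of Zfp933. Resemblance over the whole window thus did not go with the direction for Zfp994.
Zfp984, chr4:147809789-147809938, minus strand: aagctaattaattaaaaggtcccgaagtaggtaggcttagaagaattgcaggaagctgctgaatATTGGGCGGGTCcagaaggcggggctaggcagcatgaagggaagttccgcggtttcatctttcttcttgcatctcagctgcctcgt
Zfp979, chr4:147642509-147642658, minus strand: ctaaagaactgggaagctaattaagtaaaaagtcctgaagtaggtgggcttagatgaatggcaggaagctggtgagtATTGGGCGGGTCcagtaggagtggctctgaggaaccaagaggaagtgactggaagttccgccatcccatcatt
Zfp980, chr4:145670547-145670696, plus strand: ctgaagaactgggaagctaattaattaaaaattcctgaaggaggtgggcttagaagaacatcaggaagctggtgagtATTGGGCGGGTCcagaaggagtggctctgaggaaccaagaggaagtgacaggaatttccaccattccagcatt
Zfp994, chr17:22225615-22225764, minus strand: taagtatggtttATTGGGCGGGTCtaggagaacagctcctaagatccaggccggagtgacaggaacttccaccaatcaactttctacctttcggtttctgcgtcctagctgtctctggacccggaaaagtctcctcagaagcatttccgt

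In the promoter of Zfp933 the stretch was not found in this window. There, and in 19 of the 94 lower members with a window in all, another one was, ACTACANNTCCC or its reverse complement. It resembles the element bound by the protein of Zfp143. It is shown in capitals for Zfp933, for Zfp595 of chromosome 13 and for Zfp334, which had the lowest adjusted p of the members named here with shPC28.
Zfp933, chr4:147848419-147848568, minus strand: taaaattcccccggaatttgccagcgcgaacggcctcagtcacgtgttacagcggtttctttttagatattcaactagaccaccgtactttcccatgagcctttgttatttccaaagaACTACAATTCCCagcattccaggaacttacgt
Zfp595, chr13:67332561-67332710, minus strand: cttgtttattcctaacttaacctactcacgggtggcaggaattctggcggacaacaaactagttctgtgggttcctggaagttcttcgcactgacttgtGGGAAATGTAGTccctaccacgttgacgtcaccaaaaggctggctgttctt
Zfp334, chr2:165388260-165388409, minus strand: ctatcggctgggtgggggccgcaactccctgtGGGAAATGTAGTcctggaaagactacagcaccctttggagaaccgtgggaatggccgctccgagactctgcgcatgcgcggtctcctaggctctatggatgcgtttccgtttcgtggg

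Both stretches were written down after these promoters had been read, so their counts describe and do not test. On either strand, ATTGGGCGNGTC was found in 9 of 179 member promoters (5.03%), in 15 of all 27025 promoters of the table (0.0555%) and in 2 of the 6889 other genes with a mean of 7 or more. All 9 members that hold it rose with shPC28, 7 on chromosome 4 and Zfp947 and Zfp994 on chromosome 17, at log2 changes from 0.41 to 1.62. None of the 94 lower or 57 uncalled members with a window had it. With shPC25 7 of the 9 were higher, and 4 without scram replicate 1. Of all probe sets at this level 34.1% rose with shPC28 and 17.6% with shPC25. The 7 on chromosome 4 are among the close copies described above, and Zfp947 and Zfp994 lie in 1 run. Few separate loci may thus stand behind the 9. The 2 other genes, Stard13 on chromosome 5 and Rex2 on chromosome 4, rose with shPC28 as well, by 0.48 (adjusted p = 0.022) and 0.88 (adjusted p = 0.0047). With shPC25 Stard13 was called higher (0.49, adjusted p = 0.040) and Rex2 was not (0.32, adjusted p = 0.28). Rex2 shares its chromosome with 7 of the 9 members, and whether it is a copy of them was not tested. Prss30 on chromosome 17 also holds the stretch, but its mean of 2.37 was under the level and neither hairpin gave a call.

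ACTACANNTCCC was commoner in Zfp promoters but did not part the directions to the same degree. It was in 30 of 179 member promoters (16.8%), in 4.99% of the other genes at this level and in 1.98% of all promoters in the table. Of the 30 members, 19 fell and 2 rose with shPC28 and the median change was -1.15, beside 75 lower and 26 higher of the 149 without it and a median of -0.44. After quantile normalization 18 of the 30 were lower and 6 higher. As deposited, the stretch was in 20.2% of lower, 15.8% of uncalled and 7.14% of higher members. Of the 19 that fell, 8 lay on chromosome 7 and 7 on chromosome 13, so few separate loci may stand behind the count. Other genes at this level with the stretch were lower in 31.7% and higher in 36.9%, close to the 37.0% and 34.6% of those without it.

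Common promoter motifs were searched on both strands in the same windows. The YY1 motif AANATGGC was in 14.5% of member promoters, in 10.2% of all genes at this level and in 6.23% of the table, and it was in 18.1% of the 94 promoters of lower members, 14.0% of the 57 of uncalled ones and 3.57%, or 1 promoter, of the 28 of higher ones. The ETS motif CCGGAAG was in 21.2% of members and 21.6% of genes at this level, with 14.9% of lower, 29.8% of uncalled and 25.0% of higher members. The CCAAT box, whose letters are part of the longer stretch above, was in 53.1% of members beside 40.5% of genes at this level and 37.9% of the table. The SP1 motif GGGCGG was in 48.0% beside 67.8% and 35.9%. Member promoters had a median GC content of 54.0%, against 61.3% for genes at this level.

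On chromosome 13 the direction was the other one. In the run of 11 members from Zfp759 to Zfp273, 8 fell with shPC28 and none rose, with a median of -1.36, and 4 fell with shPC25. The shares lower were 72.7% and 36.4%, beside 53.2% and 20.8% of all members and 36.7% and 19.5% of probe sets at this level. Zfp87 was at 9.76, 10.06 and 9.92 in scram, 7.71, 8.37 and 8.48 with shPC25 and 6.48, 6.36 and 6.38 with shPC28. The groups were apart, by 3.31-fold and 11.4-fold (-1.73 ± 0.19 SE and -3.51 ± 0.19 SE, adjusted p = 0.00053 and 1.72e-06). Zfp493 fell by 1.21 and 2.63. Zfp595 was at 7.57, 8.27 and 8.19 in scram, 7.68, 7.97 and 8.32 with shPC25 and 6.40, 6.63 and 6.92 with shPC28, so that only shPC28 moved it (-1.36 ± 0.23 SE, adjusted p = 0.0013, against -0.02 ± 0.23 SE, adjusted p = 0.97).

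In 4 runs on chromosome 7 no member rose with shPC28. The run from Zfp180 to Zfp526 had 7 of 9 lower (77.8%, median -1.24), and that from Zfp84 to Zfp146 had 7 of 9 (77.8%, median -0.89). That from Zfp788 to Zfp719 had 4 of 6 lower (66.7%), and that from Zfp553 to Zfp646 had 3 of 6 (50%). Of all 48 members on chromosome 7, 56.2% were lower and 2 members higher. This was near the 53.2% lower of all members, beside 36.7% of the probe sets at this level. After quantile normalization 1 member of the second run and 1 of the third, and 2 members of the chromosome 13 run, were called higher, beside 7, 6, 3 and 2 lower in the chromosome 7 runs and 7 in that of chromosome 13. The longest run, 22 members from Zfp160 to Zfp13 on chromosome 17, was mixed, with 7 higher and 8 lower. It held both Zfp994, from 8.87, 9.16 and 9.04 in scram to 10.51, 10.80 and 10.14 with shPC28 (1.46 ± 0.18 SE, adjusted p = 0.00017), and Zfp760, from 9.56, 9.23 and 9.20 to 5.69, 5.91 and 5.87 (-3.51 ± 0.16 SE, adjusted p = 9.06e-07). The 130 members in no run had 70 lower and 16 higher, much as the 86 in runs had 45 and 18.

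**Figure D5:**
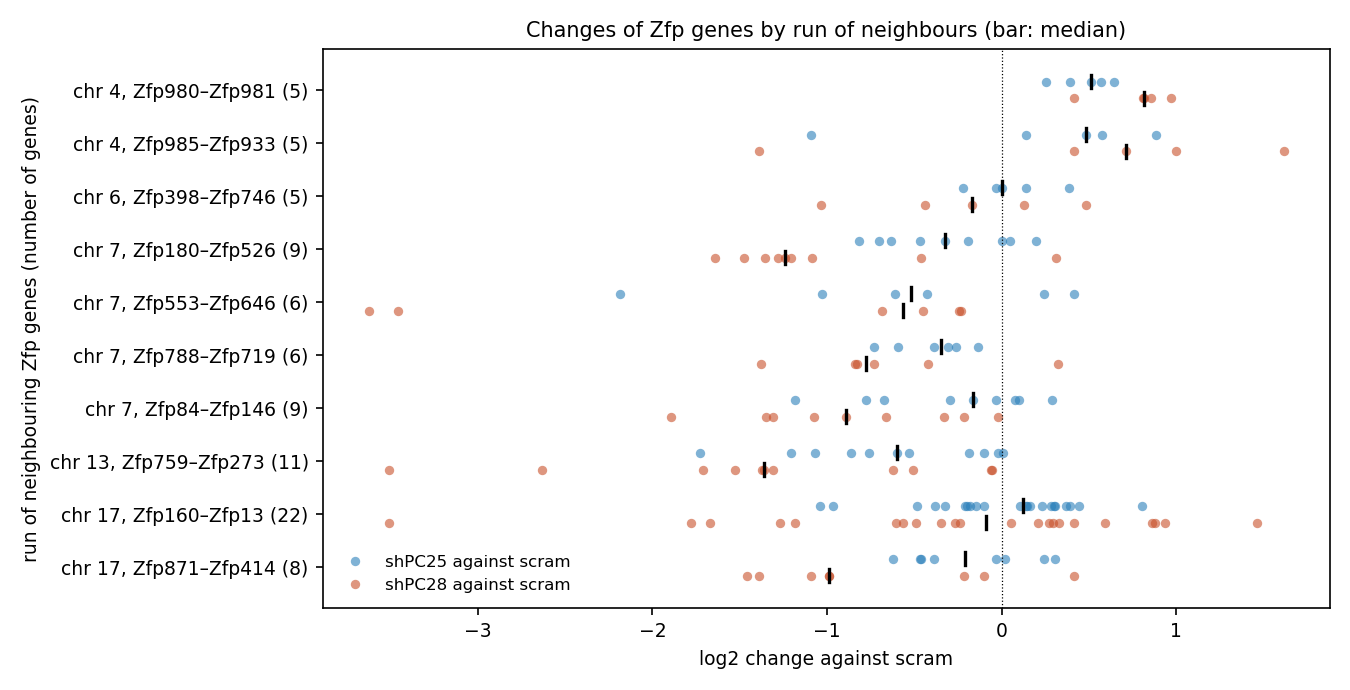
Log2 change against scram (horizontal axis) of each Zfp gene in the 10 runs of neighbours (vertical axis, with the number of genes), blue for shPC25 and red for shPC28, the bar being the median. The chromosome 4 genes lie right of 0 except Zfp933, and the chromosome 13 run lies left of it, with a median of -1.36 with shPC28.

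A group of 59 members was called in none of the 3 comparisons, a count that was not made for all probe sets at this level. The 5 of these members with the smallest standard error were Zfp207, Zfp706, Zfp57, Zfp971 and Zfp691. Some of this depended on the fit. With a variance trend in eBayes Zfp207 was called higher with shPC28 (0.24, adjusted p = 0.0017). With olfactory receptor centring Zfp57 was called lower (-0.34, adjusted p = 0.017). Zfp971, which had the highest signal of the members, measured 15.48, 15.57 and 15.59 in scram, 15.37, 15.61 and 15.39 with shPC25 and 15.47, 15.47 and 15.52 with shPC28, all overlapping. Zfp966, at 14.81, 15.11 and 14.89 in scram and 14.78, 14.69 and 14.86 with shPC28, gave -0.16 ± 0.11 SE (adjusted p = 0.27), and -0.36 with olfactory receptor centring (adjusted p = 0.036). In the main fit no member was called in opposite directions by the hairpins against scram, but this depended on the fit. With arrays centred on their medians, Zfp768, Zfp655 and Zfp131 were called higher with shPC25 (adjusted p = 0.024, 0.041 and 0.042) and stayed lower with shPC28. With a variance trend in eBayes, Zfp788 was called lower with shPC25 and higher with shPC28 (adjusted p = 0.025 and 0.040).

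Other zinc finger families at the same level were read in the same way, beside 36.7% lower and 34.1% higher of all probe sets there with shPC28. Of 25 Zbtb genes, whose proteins join C2H2 fingers to a BTB domain, 17 fell and 1 rose with shPC28, with a median of -1.04. The 11 Zscan and Zkscan genes had 5 lower (45.5%) and 3 higher, the 11 Zc3h genes, whose CCCH fingers bind RNA, 5 lower (45.5%) and 2 higher with a median of -0.11, and the 20 genes with a Zfp or Znf symbol ending in letters 10 lower and 3 higher. With shPC25 the counts were 10 lower and 3 higher for Zbtb, 1 lower and 2 higher for Zscan and Zkscan (median 0.19), 2 lower and 1 higher for Zc3h (median 0.09) and 4 lower and 2 higher for the last group. In that order 40%, 9.09%, 18.2% and 20% were lower and 12%, 18.2%, 9.09% and 10% higher. Beside them stood 19.5% lower and 17.6% higher of all probe sets at this level. The 114 Zfp genes under the level had 35 lower (30.7%) and 10 higher (8.77%) with shPC28, although low signal limits calls there. Of all 22206 probe sets, bright ones included, 20.5% were lower and 21.2% higher. Some of the 114 are under the level through their own fall, so their share lower is a description only.

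The corepressor that KRAB proteins use was itself measured. Trim28 was at 11.20, 11.26 and 11.13 in scram, 11.54, 11.62 and 11.35 with shPC25 and 11.34, 11.28 and 11.57 with shPC28. The hairpin arrays lay above scram, but neither change passed the test (0.31 ± 0.12 SE, adjusted p = 0.098, and 0.20 ± 0.12 SE, adjusted p = 0.20). Of 34 measured genes of this pathway, 14 fell and 8 rose with shPC28, and 5 fell and 3 rose with shPC25, shares of 41.2% and 23.5% and of 14.7% and 8.82%. Beside the 36.7% and 34.1% and the 19.5% and 17.6% of probe sets with a mean of 7 or more, a level not required of this list, the share lower was near the background with shPC28 and under it with shPC25.

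Tasor, a subunit of the HUSH silencing complex, fell most of this list, from 11.79, 11.40 and 11.57 in scram to 10.72, 10.75 and 10.74 with shPC25 and 8.28, 8.65 and 8.57 with shPC28. The groups were apart (-0.85 ± 0.13 SE, adjusted p = 0.0026, and -3.09 ± 0.13 SE, adjusted p = 7.32e-07). Atf7ip, the partner of Setdb1, fell by 0.58 and 0.91, and Cbx5, which encodes the heterochromatin protein HP1 alpha, by 0.46 and 0.87. With shPC28 Daxx, a histone H3.3 chaperone, fell by 1.35, Ehmt1, the GLP methyltransferase, by 0.99 and Setdb1 by 0.50 (adjusted p of 0.0037 or less). Gatad2b, a NuRD subunit, rose by 0.56 and 0.50, the latter call being lost with olfactory receptor centring (adjusted p = 0.062). Ehmt2 rose as well, by 0.42 and 0.71 (adjusted p = 0.0099 and 0.00017), and with shPC28 Mta1 rose by 0.66 and Rbbp4 by 0.56. The list thus moved in both directions.

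The level of 7 fell among genes with all kinds of change. Just inside it were Zfp941 at a mean of 7.01, Zfp777 at 7.02 and Zfp11 at 7.06, with log2 changes for shPC28 of 0.25, -0.17 and -2.57. The change of Zfp941 was 0.56 and called without shPC28 replicate 1 (adjusted p = 0.0046), and 0.83 after quantile normalization (adjusted p = 0.015). Just outside were Zfp236 at 6.99, Zfp661 at 6.98 and Zfp846 at 6.94, with changes of -1.74, -0.92 and -1.70.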

How the data were processed

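Messenger RNA of cultured E0771 cells was measured on 9 Clariom S mouse arrays, 3 each for scram, shPC25 and shPC28, grouped by the labels. The authors labelled RNA with the WT PLUS kit and processed the arrays in Transcriptome Analysis Console. The deposited values were taken as log2 signal, normalized between arrays by the authors, since all lay between 1.51 and 18.64. For the base of the logarithm, the algorithm and the build, nothing was given in the sources used here. The table held 22206 probe sets, and 19572 had 1 symbol in the platform's annotation and 2634 none. Symbols and Entrez IDs of all 216 members matched the RefSeq gene table. The number of arrays limits the precision, and the median standard error of a member's change was 0.14.

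Values were fitted in R 4.3.3 with limma 3.58.1 (lmFit and eBayes, 1 mean per group over all 9 arrays). Tests were two-sided, with Benjamini-Hochberg adjustment over the 22206 probe sets and a threshold of 0.05. Both comparisons against scram share the scram arrays. No probe set was removed. Lists are described by counts and medians, without a test. Genes are named where they had the 10 lowest or highest changes per hairpin without overlap, the 5 between hairpins, the 5 highest levels, a listed role, a place at the level threshold, 1 of the 4 smallest p-values of the KRAB corepressor list per hairpin, or the 5 smallest errors among uncalled members. Zfp595, Zfp781, the other genes of the runs, Setdb1, Ehmt2, Mta1, Rbbp4, Trim28, Stard13, Rex2 and Prss30 are named beyond this. They are named where a run, a promoter or the pathway called for it, after their values were seen. The members and lists were chosen with earlier results of these data known. The fit was tested on simulated data. Alternatives were other scalings, variance models, filters, thresholds, the replicate block and leaving out each array. Protein sequences were not analysed here.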

Additional observations from a re-analysis of the deposited data

How the results depend on the processing

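The direction of the 3 member medians and of the balance of calls held under every alternative run, but their size depended on the scaling. With shPC25 the median of -0.14 became -0.042 with arrays centred on their medians, -0.046 after quantile normalization and -0.21 with centring on olfactory receptor probe sets. With shPC28 the median of -0.49 became -0.38, -0.17 and -0.69 in that order, and -0.55 when the level of 7 was set on the scram arrays. Between the hairpins, -0.31 became -0.13 after quantile normalization and -0.44 with olfactory receptor centring, where 7 rather than 16 members were higher. The median of all probe sets moved by -0.20 with shPC28 under olfactory receptor centring and by 0.10 under median centring. The share of calls that were higher went from 33.8% to 47.9% (median centring) and 47.0% (quantile) with shPC25, from 22.8% to 36.8% (quantile, 53 higher) with shPC28 and from 14.7% to 25.0% (quantile) between the hairpins. Zfp777 and Zfp691, not called with shPC28, were higher after quantile normalization, by 0.41 and 0.32. The cause was not tested.

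At an adjusted p under 0.01, 34 members were called with shPC25 (11 higher, 23 lower) and 6 were higher between the hairpins. With a 2-fold change required as well, there were 14 calls with shPC25 (1 higher, 13 lower), 81 with shPC28 (9 higher, 72 lower) and 46 between the hairpins (0 higher, 46 lower). Leaving out 1 array at a time gave 46 to 72 calls with shPC25 (17 to 24 higher, 27 to 48 lower, medians -0.14 to -0.12), 138 to 150 with shPC28 (29 to 36 higher, 106 to 116 lower, medians -0.51 to -0.45) and 95 to 106 between the hairpins (10 to 15 higher, 84 to 94 lower, medians -0.41 to -0.29). Calls present in every such fit were 37 of 68, 128 of 149 and 91 of 109. Deviations of arrays with the same replicate number were weakly opposed (correlations -0.18 to -0.14), while those of arrays with different numbers correlated at 0.05 to 0.13. The 2 ranges did not overlap, so the number was not without structure, and its source was not tested. The number was not taken to pair the arrays. A replicate block gave 50, 140 and 98 calls (16 and 34, 30 and 110, 11 and 87 higher and lower). With 3 arrays per group, changes near the median standard error of 0.14 could not be resolved.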
